A study of Drosophila melanogaster with 12 samples.

Results

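The peaks of dBigH1 and of H1 were compared within S2 cells of the fruit fly Drosophila melanogaster that had been induced to express dBigH1. The comparison takes the 2 dBigH1 peak lists and the 2 H1 peak lists of induced cells, paired by replicate number, which are 4 of the 8 lists and 4 of the 12 samples of the series. The dBigH1 lists held 196 peaks (replicate 1) and 238 peaks (replicate 2), and the H1 lists held 3545 and 5182 peaks. All 4 samples carry the same label, wt BigH1 induced at 1 mM, and the treatment protocol gives 1 mM copper sulphate for 24 h. S2 is an established line derived from fly embryos, and the growth protocol names lines that carry FLAG-tagged dBigH1 under hygromycin selection. The sources used here give neither the promoter behind the inducible protein nor whether a line was 1 clone. The lists hold no measure of how much dBigH1 the cells contained.

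Linker histones bind the nucleosome where DNA enters and leaves it and are known for compacting chromatin. H1 is the somatic linker histone of the fly. dBigH1, encoded by the gene BigH1 (locus tag Dmel_CG3509), takes the place of H1 in the early embryo and in germline cells. Somatic lines such as S2 normally run on H1, so an induced dBigH1 meets chromatin that already carries it. In chromatin immunoprecipitation with sequencing (ChIP-seq), an antibody pulls down the protein with its DNA. A peak is a stretch where the caller scored more reads than its local background. Peaks said to be with or without H1 or dBigH1 are those that do or do not overlap a called peak of that antibody. Lack of a peak does not show lack of the protein.

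Each list came from 1 library and gives the position of every peak and the authors' score, with no read counts, so the sequencing depth is unknown. The lowest scores of the 4 lists were 50 and 50.21 for dBigH1 and 50.02 and 50.07 for H1. In peak files of this caller a score is the negative log10 of its p-value times 10, so that 50 stands for a caller p of 1e-05. Scores and peak numbers grow with depth, so their differences between antibodies cannot be told apart from differences in depth. Values of the libraries, 1 per library, were compared by exact permutation (two-sided). There are 6 ways to assign 2 of 4 libraries to an antibody, so the smallest possible p is 0.333. Nothing in the labels says that the replicates came from separate cultures, so the spread between them may be technical.

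The first question was how the peaks of the antibodies differ in number, width and score. dBigH1 gave fewer peaks than H1, with lower scores and a greater median width. dBigH1 libraries held 217 ± 29.7 peaks and H1 libraries 4363.5 ± 1158 (mean ± SD, n = 2 each), a log2 ratio of -4.31. The dBigH1 peaks covered 0.611 and 0.822 Mb, and the H1 peaks covered 9.99 and 14.9 Mb, a log2 ratio of -4.10. Against only the H1 peaks of highest score, as many as the dBigH1 list held, the log2 ratio of covered length was -0.76 (-0.76 and -0.77 by replicate number). The dBigH1 and H1 libraries did not overlap in number or in covered length, and the exact permutation p was 0.333 for each, the smallest the test allows.

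The median dBigH1 peak was 2679.5 bp wide in replicate 1 and 3026 bp in replicate 2, and the median H1 peak was 2348 and 2360 bp wide. Every dBigH1 library lay above every H1 library (log2 ratio 0.27, 0.19 and 0.36 by replicate number, exact permutation p = 0.333). The middle 50% of dBigH1 peaks ran between 1880 and 4209.75 bp in replicate 1 and between 1991.5 and 4593.25 bp in replicate 2. For H1 the same limits were 1723 and 3423 bp, and 1678 and 3531 bp. The widest single peaks were H1 peaks, at 13167 and 12529 bp, against 8553 and 9267 bp for dBigH1. The width difference depended on how peaks were delimited and on which H1 peaks were taken. With peaks closer than 1000 bp joined the log2 ratio was 0.016, with opposite signs in the replicates (-0.016 and 0.047), and with scores of 100 or more it was 0.63. When each H1 list was reduced to its highest-scoring peaks, as many as the dBigH1 list of the same number held, the median H1 peak was 5054.5 and 5645.5 bp wide and the log2 ratio was -0.91. Score and width went together across H1 peaks (Spearman's rho 0.59 and 0.67), so this cut by score also picks wide H1 peaks, while the dBigH1 lists were left whole.

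The median score was 64.6 and 68.7 for dBigH1 and 92.2 and 109 for H1, and the libraries of the antibodies did not overlap (log2 ratio -0.59, exact permutation p = 0.333). Scores reached 100 in 10.2% and 16.0% of dBigH1 peaks and in 44.2% and 54.9% of H1 peaks. The highest dBigH1 scores were 222 and 768, and the highest H1 scores were 1175 and 1508. The score of 768 belonged to a single peak far above the rest of its list, whose next score was 171.

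**Figure D1:**
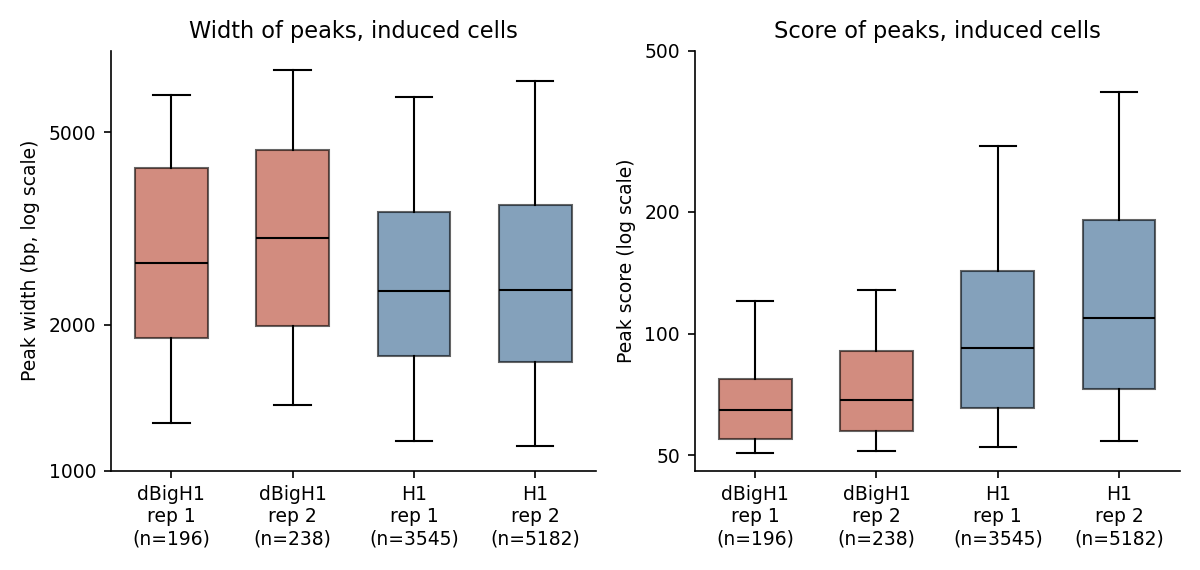
Peak width (left, bp, log scale) and score (right, log scale) in the 4 lists of induced cells, with dBigH1 libraries in red and H1 libraries in blue. Boxes span the middle 50% of peaks, the line is the median, and whiskers reach the 5th and 95th percentiles. Median width is 2679.5 and 3026 bp for dBigH1 and 2348 and 2360 bp for H1, and median score is lower for dBigH1.

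The next question was which chromosomes carry the peaks. By share, dBigH1 peaks lay mostly on the arms 2L and 3L. H1 peaks were spread more evenly over the classes and reached into pericentric scaffolds. A share by arm does not show whether peaks are spread along that arm. 3L held 39.8% and 36.1% of dBigH1 peaks and 20.7% and 19.7% of H1 peaks. 2L held 33.7% and 38.2% of dBigH1 peaks and 23.4% and 18.4% of H1 peaks. On the right arms the order was the opposite: 3R held 19.9% and 18.1% of dBigH1 peaks and 32.9% and 35.1% of H1 peaks, and 2R held 4.08% and 5.46% of dBigH1 peaks and 12.1% and 15.1% of H1 peaks.

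The Het scaffolds, which are assembled pericentric sequence, held 1.02% and 0.84% of dBigH1 peaks and 7.25% and 7.80% of H1 peaks. The unplaced scaffolds U and Uextra held 1 and 0 dBigH1 peaks and 86 and 139 H1 peaks. X held 2 and 3 dBigH1 peaks (1.02% and 1.26%) and 43 and 67 H1 peaks (1.21% and 1.29%), and chromosome 4 held 0 peaks in all 4 lists. In 6 of the 8 classes (75%) the dBigH1 and H1 libraries did not overlap, with dBigH1 higher in 2 and lower in 4. Each of these 6 had an exact permutation p of 0.333 and an adjusted p of 0.444 over the 8 classes (Benjamini-Hochberg), and this design could not have passed 0.05.

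Set against each other by replicate number, there were 10.6 and 8.41 dBigH1 peaks per 100 H1 peaks on 3L, and 7.95 and 9.57 on 2L. The ratio was 3.35 and 2.37 on 3R, and 1.86 and 1.66 on 2R. Over whole lists it was 5.53 and 4.59. The right arms thus lay below the whole-list ratio and the left arms above it in both replicates.

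The contrast also depended on which H1 peaks were taken. The highest-scoring 196 and 238 H1 peaks lay on 2L in 39.8% and 39.9% of cases, on 3R in 18.4% and 19.3%, and on 2R in 4.59% and 5.04%. Against these, the mean dBigH1 share differed by -3.90 percentage points on 2L, opposite in sign to the full lists. On 3R it differed by 0.14 points (1.53 and -1.26 by replicate number) and on 2R by -0.05 points (-0.51 and 0.42), with no shared direction on either arm. On 3L lay 39.8% and 36.1% of dBigH1 peaks and 16.3% and 15.5% of the strongest H1 peaks, a difference of 22.0 points. Among peaks with scores of 100 or more in both antibodies' lists, the 3L difference was 31.0 points in replicate 1 and -1.59 points in replicate 2, and the 2L difference was 18.0 and 39.7 points. The Het scaffolds held 16.3% and 14.7% of the strongest H1 peaks, further from dBigH1 than in the full lists, and X held none of them.

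**Figure D2:**
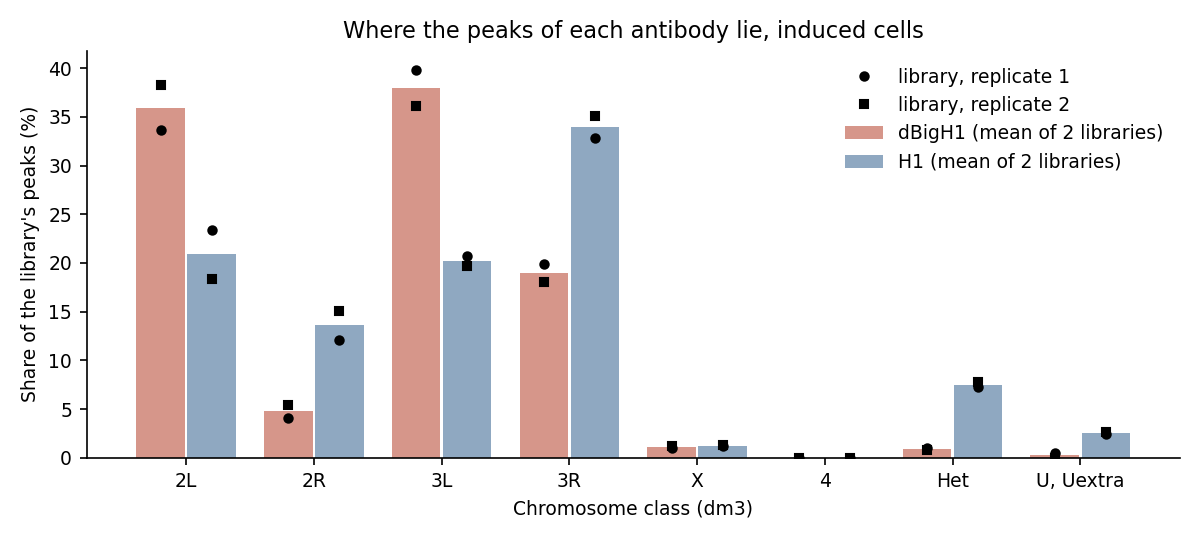
Share of each library's peaks (%) on 8 chromosome classes of dm3, with bars for the mean of 2 libraries per antibody (dBigH1 red, H1 blue) and points for the single libraries. dBigH1 lies above H1 on 2L and 3L and below it on 2R, 3R, the Het scaffolds and U with Uextra.

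Width also differed by arm. On 2L the median dBigH1 peak was 3110 and 3318 bp wide and the median H1 peak 2493.5 and 2616 bp, and on 3L dBigH1 peaks were 2883 and 3273.5 bp and H1 peaks 2515 and 2543.5 bp. On 3R the order was reversed, at 1901 and 2188 bp for dBigH1 and 2332 and 2382 bp for H1. On 2R the medians were 2531.5 and 3582 bp for dBigH1, from 8 and 13 peaks, and 2241.5 and 2292.5 bp for H1.

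A further question was how far dBigH1 peaks lie from H1 peaks. Most dBigH1 peaks either were covered by H1 peaks over 90% or more of their length or did not overlap H1. Few had an intermediate share covered. In replicate 1, 110 of 196 dBigH1 peaks overlapped an H1 peak by 1 bp or more (56.1%, 95% exact binomial interval 48.9 to 63.2), and in replicate 2, 139 of 238 did (58.4%, 51.9 to 64.7). Such intervals cover counting error only. H1 peaks covered 90% or more of the dBigH1 peak in 99 and 123 cases (50.5% and 51.7% of the lists), none of it in 86 and 99 cases (43.9% and 41.6%), and an intermediate share in only 11 and 16 cases (5.61% and 6.72%).

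Of the dBigH1 peaks that overlapped H1, 73 of 110 and 96 of 139 were covered along their whole length. Only 9 and 5 of them touched more than 1 H1 peak. H1 covered 90% or more of their length in 90% and 88.5% of cases. Between replicate lists of 1 antibody, overlapping peaks of replicate 1 reached this in 68.9% of cases for dBigH1 and 80.9% for H1. High coverage was thus also common between replicates. The H1 partner was usually the wider peak, with a median ratio of H1 to dBigH1 width of 1.34 and 1.45. A dBigH1 peak contained an H1 peak whole in 4 of 119 and 2 of 144 overlapping combinations. For scale, in 46 overlaps between the dBigH1 lists, the peak of replicate 1 lay inside that of replicate 2 in 34.8% of cases and contained it in 17.4%, and in 2946 overlaps between the H1 lists it lay inside in 36.9% and contained the other in 11.3%. Edges of dBigH1 and H1 peaks fell within 50 bp of each other at 24.8% and 20.8% of overlapping edges, compared with 37.0% between dBigH1 replicates and 34.4% between H1 replicates.

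The dBigH1 peaks that did not overlap H1 lay a median of 7.47 kb (replicate 1) and 5.88 kb (replicate 2) from the nearest H1 peak, with the middle 50% between 2.43 and 17.2 kb and between 2.55 and 13.2 kb. Within 10 kb of an H1 peak, overlaps included, were 82.1% and 86.1% of dBigH1 peaks, and within 100 kb were 98.5% and 99.6%. The peaks beyond 100 kb numbered 3 and 1. For scale, the median gap between neighbouring H1 peaks was 4.70 and 2.53 kb, and between neighbouring dBigH1 peaks 90.6 and 69.6 kb. The stretch free of H1 peaks in which a dBigH1 peak without H1 lay had a median length of 42.8 and 37.7 kb. The dBigH1 peak filled a median of 9.49% and 10.3% of it. Picking stretches because they hold a peak favours long ones, so these lengths cannot be read against the median gap between H1 peaks.

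**Figure D3:**
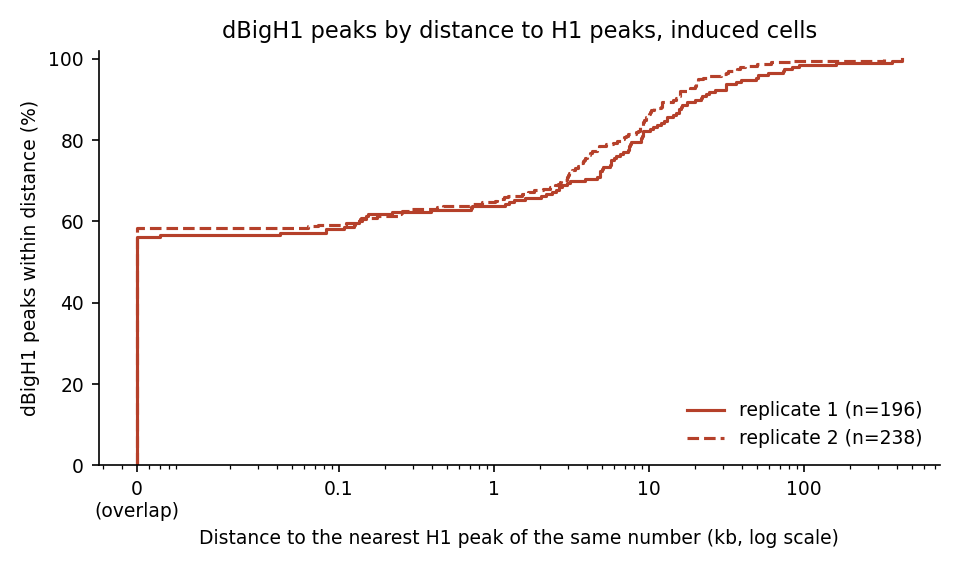
Cumulative share of dBigH1 peaks (%) by distance to the nearest H1 peak of the same replicate number (kb, log scale, with overlapping peaks drawn at the left end as 0), for replicate 1 (solid) and replicate 2 (dashed). Both curves start at the overlapping share of 56.1% and 58.4%, rise to 63.8% and 64.7% at 1 kb and climb further between 1 and 100 kb.

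The share of sequence under H1 peaks was then measured in steps away from the dBigH1 peaks of the 4 large arms. Inside dBigH1 peaks it was 48.0% and 45.0%, in the first kb outside them 36.3% and 37.2%, at 10 to 20 kb 25.2% and 33.6%, and at 100 to 200 kb 17.9% and 22.9%. The whole arms lay lower still, with H1 peaks over 11.3% and 13.7% of 2L, 9.07% and 12.8% of 3L, 11.1% and 18.1% of 3R, and 5.96% and 10.9% of 2R. H1 coverage was highest within the dBigH1 peaks themselves and, out to 200 kb, above that of whole arms. Where along an arm the dBigH1 peaks lay was not taken into account in this comparison. On the scale of 1 Mb windows the replicates differed: the 25% of windows with most H1 peaks held 53.4% and 25.4% of dBigH1 peaks, and 53.7% and 50.1% of H1 peaks.

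The surroundings of dBigH1 peaks with and without H1 differed most close by. Around the dBigH1 peaks with H1, H1 coverage was 97.7% and 91.7% inside and 59.5% and 60.3% in the first kb. Around those without H1 it was 0% inside, by definition, and 7.23% and 5.22% in the first kb. These nearby values follow in part from the definition, because an H1 peak extends over several kb. At 50 to 100 kb the shares were 21.7% and 28.7% around peaks with H1, and 19.8% and 24.3% around peaks without.

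**Figure D4:**
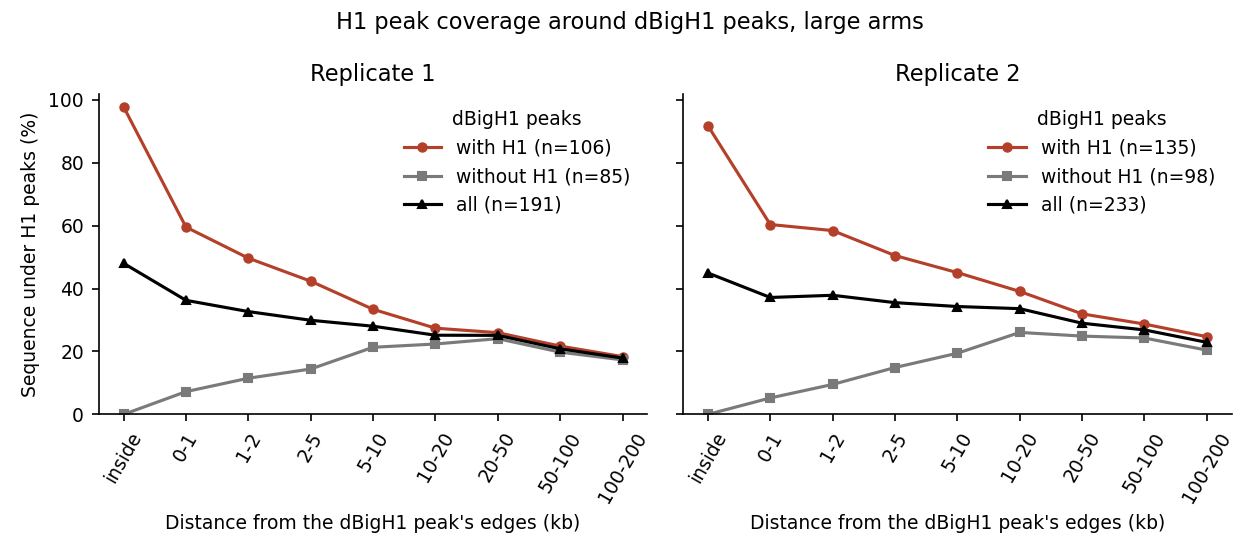
Share of sequence under H1 peaks (%) inside dBigH1 peaks and in steps away from their edges (kb), on 2L, 2R, 3L and 3R, for replicate 1 (left) and replicate 2 (right). Lines give dBigH1 peaks with H1 (red circles), without H1 (grey squares) and all (black triangles), and the lines draw closer with distance.

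dBigH1 peaks with H1 were narrower than those without, and their scores had no shared direction. Peaks with H1 had a median width of 2565 and 2598 bp, and peaks without H1 of 3180.5 and 4082 bp, a mean log2 ratio of -0.48 (-0.31 and -0.65, exact sign-flip p = 0.5, the smallest that 2 libraries allow). The widest 25% of dBigH1 peaks overlapped H1 least, at 38.8% (25.2 to 53.8) and 30% (18.8 to 43.2). For the narrowest 25% the shares were 59.2% (44.2 to 73.0) and 73.3% (60.3 to 83.9). In replicate 1 these binomial intervals overlapped, and the second narrowest 25% had the highest share, at 69.4%. A longer peak has more room to meet another, and the part played by geometry was not tested. Peaks over 5 kb made up 6.36% and 10.1% of those with H1, and 20.9% and 33.3% of those without.

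By arm, peaks with H1 were narrower on 2L (2662 and 2804 bp, against 4167 and 4632 bp without H1) and on 3L (2670 and 3024 bp, against 3883 and 4012 bp). On 3R this held in replicate 2 (2023 bp with H1 and 3525 bp without) and not in replicate 1 (1912 and 1869 bp), and on 2R the peaks with H1, of which there were 2 and 3, were the wider ones. With H1 lists reduced to the length of the dBigH1 lists, where 26 and 41 dBigH1 peaks still overlapped H1, the ratio changed sign to 0.28, and with scores of 100 or more it was -0.14.

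Median scores of dBigH1 peaks were 65.1 with H1 and 62.7 without in replicate 1, and 67.0 with H1 and 74.3 without in replicate 2, so the direction was not shared. Among dBigH1 peaks in the top 25% by score, 59.2% and 45% overlapped H1, and in the bottom 25% 51.0% and 65%. Recurrence in the other dBigH1 list had overlapping intervals: 21.8% (14.5 to 30.7) and 18.7% (12.6 to 26.2) of peaks with H1 recurred, and 24.4% (15.8 to 34.9) and 20.2% (12.8 to 29.5) of peaks without.

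Overlap with H1 varied by arm. It was 62.8% and 58.1% of dBigH1 peaks on 3L, 56.4% and 72.1% on 3R, 50% and 56.0% on 2L, and 25% and 23.1% on 2R, where it rests on 2 of 8 and 3 of 13 peaks. The 2 and 3 dBigH1 peaks on X overlapped H1 in 2 and 2 cases.

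A dBigH1 peak was found on an H1 peak more often than on a dBigH1 peak of the other replicate, which was the case for 23.0% and 19.3% of the lists. The H1 lists are many times longer, and at equal list length 13.3% (8.85 to 18.8) and 17.2% (12.7 to 22.6) of dBigH1 peaks overlapped H1. The strongest H1 peaks of the replicates overlapped each other in 37.2% and 36.6% of cases at that length. Of the 110 and 139 dBigH1 peaks on H1, 26 and 41 were thus on the strongest H1 peaks.

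The last question was which H1 peaks overlap dBigH1 peaks. These were the higher-scoring and wider ones, in both replicates and on all 4 large arms, though 2R held very few of them. A dBigH1 peak overlapped 118 of 3545 H1 peaks in replicate 1 (3.33%, 2.76 to 3.97) and 141 of 5182 in replicate 2 (2.72%, 2.29 to 3.20). In the first replicate, H1 peaks with dBigH1 had a median score of 168 (middle 50% between 91.1 and 262) and those without of 91.0 (65.1 to 139). In the second, the medians were 255 (130 to 446) with dBigH1 and 107 (72.5 to 186) without. The mean log2 ratio of median scores was 1.07, a 2.10-fold difference that was positive in both libraries (0.89 and 1.25, exact sign-flip p = 0.5, the smallest possible).

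The median width of H1 peaks with dBigH1 was 3644.5 and 4313 bp, and of those without 2323 and 2331 bp, a mean log2 ratio of 0.77 (0.65 and 0.89, exact sign-flip p = 0.5). Peaks over 5 kb made up 33.1% and 36.9% of H1 peaks with dBigH1 and 9.34% and 10.2% of those without. Both the score and the width ratio were positive in 8 of 8 arm and library combinations, of which those on 2R rest on only 2 and 3 H1 peaks with dBigH1. Among only the strongest 196 and 238 H1 peaks the ratios were 0.13 for score (0.15 and 0.11) and 0.08 for width (0.22 and -0.06). The width ratio was thus not shared in direction there. These peaks were picked by score, which by itself narrows the range of scores and, as score and width went together, of widths. The smaller ratios therefore do not show whether dBigH1 goes with score or width among strong H1 peaks. The largest score difference was on 2L in replicate 2, with medians of 405 with dBigH1 and 122 without, and the smallest was on 2R in replicate 2, where 3 H1 peaks with dBigH1 had a median of 118 and those without of 94.9.

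The overlap rose at the top of the score range. In the top 10% of each H1 list by score, 11.8% (8.66 to 15.7) and 11.4% (8.77 to 14.4) of peaks overlapped dBigH1. In the next 10% the shares were 5.37% (3.26 to 8.25) and 3.86% (2.37 to 5.90), in the 7 bins of 10% below that they lay between 0.965% and 2.82%, and in the lowest 10% they were 0.282% (1 of 355) and 0% (0 of 519, upper bound 0.708%). By width, 7.22% and 6.71% of the widest 25% overlapped dBigH1, and 1.47% and 0.54% of the narrowest 25%.

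Score and width went together in the H1 lists (Spearman's rho across peaks 0.59 and 0.67, a description, as peaks of a library share its depth), and a wider peak has more room to overlap. With each H1 list divided by width into bins of 25%, H1 peaks with dBigH1 had the higher median score in 8 of 8 bins of the 2 lists. In the widest bin the medians were 244 and 378 with dBigH1, and 166 and 242 without. This bin held 64 and 87 H1 peaks with dBigH1 and ran from 3425 to 13167 bp and from 3531 to 12529 bp. Width thus still varied within it, and its part in the score difference is not removed by the division. In the narrowest bin they were 82.6 and 71.0 with dBigH1, and 64.7 and 69.4 without, resting on 13 and 7 peaks with dBigH1. The mean log2 ratio over the bins was 0.39, against 1.07 without this division.

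**Figure D5:**
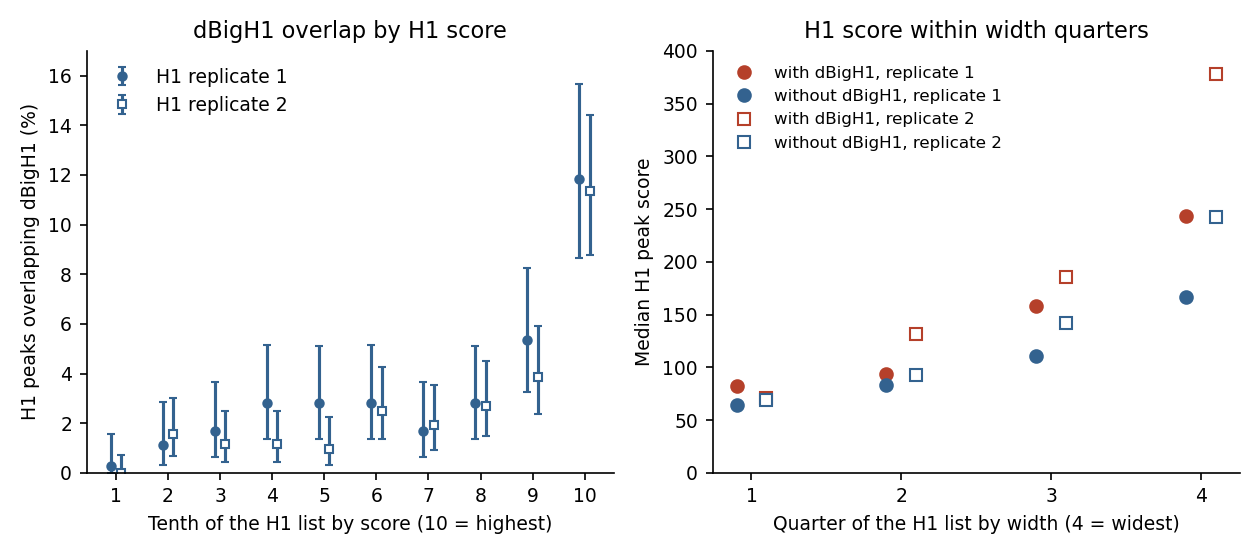
Left, share of H1 peaks that overlap dBigH1 (%) in bins of 10% of the H1 list ordered by score, with 95% exact binomial intervals (counting error only), for replicate 1 (filled) and replicate 2 (open). Right, median score of H1 peaks with dBigH1 (red) and without (blue) in each 25% of the list by width. The top bin by score reaches 11.8% and 11.4%, and the red points lie above the blue ones of the same replicate in all 4 width bins.

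On scaffolds that held dBigH1 peaks, H1 scores and widths were lower with distance from dBigH1. H1 peaks up to 10 kb from a dBigH1 peak had median scores of 107 and 141, those at 10 to 100 kb of 95.9 and 118, and those beyond 100 kb of 86.7 and 99.7. Median widths followed the same order, at 2746 and 2764 bp, 2425 and 2574 bp, and 2283 and 2298 bp. None of these peaks overlapped dBigH1. The 122 and 408 H1 peaks on scaffolds with no dBigH1 peak stood outside this order in score, with medians of 111 and 123, and were narrower, at 1866.5 and 1826.5 bp. Of all H1 peaks, 57.6% and 59.3% lay over 100 kb from any dBigH1 peak of the same number.

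H1 peaks with dBigH1 recurred in the other H1 list in 72.9% and 77.3% of cases, and those without in 77.1% and 50.3%, so the order differed between the replicates. When the H1 lists were merged, 2425 of 5781 regions were held by both. Of these, 22 overlapped dBigH1 in both dBigH1 lists, 145 in 1 of them, and 2258 (93.1%) in neither. Their median widths were 5447.5, 4765 and 3240.5 bp in that order, their median scores in replicate 1 were 279, 157 and 98.6, and in replicate 2 they were 448, 253 and 154. A wider region has more room to meet dBigH1 peaks, and score and width went together, so the part of geometry in this order was not tested.

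Single regions show both kinds of dBigH1 site. The dBigH1 lists merged into 388 regions, of which 45 were held by both lists. Of the 45, 21 overlapped H1 in both H1 lists (46.7%, 31.7 to 62.1), 10 in 1 of them and 14 in neither. Positions are in dm3, counted from 1, and the genes under them were not analysed here.

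The best-ranked of these regions by score, 2L:18275348-18282086, had dBigH1 scores of 143 and 114 and no H1 peak over its 6.74 kb, with the nearest H1 peaks 4.59 and 4.68 kb away. The second, 2L:16076386-16081412, had dBigH1 scores of 106 and 139 and lay under H1 peaks with scores of 406 and 598. The next, 2L:16192178-16198104, had dBigH1 scores of 103 and 127 under H1 peaks with scores of 379 and 473. At 3L:3589910-3593908, dBigH1 scores of 97.8 and 126 stood under H1 scores of 221 and 127.

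Of the first 10 regions, 4 overlapped H1 in both H1 lists (the 3 just given and 3L:6092030-6094596), 2 in the first list alone (3L:3004660-3009121 and 3L:5462063-5467167), and 4 in neither. The other 3 without H1 were also on 2L, at 2L:16132397-16137030, 2L:15564100-15567392 and 2L:15602796-15609585, with the nearest H1 peak 0.429 to 16.3 kb away. All 10 were on 2L or 3L, and they did not span these arms. Those on 2L lay between positions 15564100 and 18282086, and those on 3L between 3004660 and 6094596.

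Among H1 regions held by both H1 lists and by both dBigH1 lists, 2L:15839895-15848835 ranked first. Its H1 scores of 1022 and 1199 ranked 2 and 3 in their lists, and the dBigH1 scores there were 50 and 110. The next were 3L:4521660-4530537 with H1 scores of 481 and 814, 2L:18299713-18309355 with 400 and 662, 2L:16076322-16081476 with 406 and 598, and 2L:18286673-18292388 with 301 and 843. The dBigH1 scores at these 5 sites lay between 50 and 139.

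The strongest H1 regions without dBigH1 in either list were 2L:21698225-21706714, with H1 scores of 709 and 992, and 2L:22047992-22063092, with 603 and 791. They lay 358 and 73.7 kb, and 10.2 and 0.296 kb, from the nearest dBigH1 peaks. Then came 2L:18205113-18222597, the widest of the 10 H1 regions named at 17.5 kb, 2L:22098178-22102736 and 3L:21150064-21157250. H1 regions of like score and on the same arm were thus found with and without dBigH1.

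The 6 dBigH1 peaks farthest from H1 had scores between 52.4 and 77.9. In replicate 1 they were 2L:7906331-7908217 (score 54.7, 427 kb from H1), 2R:18292410-18296743 (score 77.9, 371 kb) and 3L:4874151-4881158 (score 67.6, 162 kb). In replicate 2 they were 3L:50439-52378 (score 52.4, 330 kb), 2R:4850729-4856414 (score 56.1, 82.9 kb) and 3L:4911835-4918137 (score 77.8, 61.7 kb). Only 2R:18292410-18296743 recurred in the other dBigH1 list.

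The highest-scoring dBigH1 peaks were of both kinds. In replicate 1 the first, 2L:16045695-16053148 (score 222), lay 5.74 kb from H1, and the next, 3L:3735757-3743124 (score 162) and 3R:6876971-6879775 (score 143), overlapped H1 peaks with scores of 332 and 250. In replicate 2 none of the first 3 overlapped an H1 peak of the same number. The peak with the score of 768, 2R:9372851-9374296, was 1446 bp wide, 37.0 kb from H1 and recurred in replicate 1. The next were 2L:15302142-15307541 (score 171), 20.9 kb from H1, and 3R:10844540-10848771 (score 168), 9.95 kb from H1. The region on 3R recurred in replicate 1 and there overlapped an H1 peak with a score of 177.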

How the data were processed

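Per the labels, DNA was immunoprecipitated from sonicated nuclei with polyclonal antibodies against dBigH1 or H1. Per the submitters' processing notes, the tools named are Bowtie 0.12.5 with MACS 1.4.2, and the build is dm3. Settings, and whether inputs served as control, are not given in the sources used here. The authors deposited 1 peak list per library, with a score per peak. Control lists were left out and inputs were not analysed here.

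Peaks were used as deposited, and overlap meant 1 bp or more between lists of the same number. One value per library entered each test. The region code was tested on simulated lists. Python 3.11.15, NumPy 2.4.6, pandas 2.3.3, SciPy 1.17.1 and Matplotlib 3.10.9 were used. Named regions were the 10 best-ranked dBigH1 regions of both lists, the 5 best-ranked shared H1 regions with dBigH1 in both lists and the 5 with none, and in each dBigH1 list the 3 farthest and the 3 highest peaks. The comparison, lists and tests were chosen with earlier results of these data known. A gene table of another release was used only for the name of BigH1.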

Additional observations from a re-analysis of the deposited data

Results flagged for a closer look

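Peaks that overlapped the other antibody moved in opposite directions in width. dBigH1 peaks with H1 were narrower than those without in both libraries (mean log2 ratio of medians -0.48), and H1 peaks with dBigH1 were wider than those without in both libraries (0.77). The difference between the antibodies was -1.25 on the log2 scale. This contrast was flagged because the antibodies had opposite signs in both libraries. Exact permutation of values so picked can only give p = 0.333, so this p adds no support. With the H1 lists reduced to the length of the dBigH1 lists, the dBigH1 ratio changed sign to 0.28. The cause was not tested.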

How the results depend on the processing

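Of 165 alternative values, 131 kept their direction or stayed within the spread, 23 moved and 11 changed sign. Part of the 131 could not have come out otherwise. Taking the replicate number as a block reuses the main values. For results without a test, dropping a replicate cannot shift the mean beyond the spread. Cutting each H1 list to the number of dBigH1 peaks, keeping the highest scores, changed most. The log2 ratio of covered length was then -0.76 and of median width -0.91, the share differences were -3.90 points on 2L, 0.14 on 3R and 1.14 on X, and among dBigH1 peaks the ratio with H1 over without was 0.065 for score and 0.28 for width. dBigH1 peaks per 100 H1 peaks were then 90.2 on 2L, 98.6 on 2R, 238 on 3L and 101 on 3R. Overlap was then 15.2% of dBigH1 and 15.5% of H1 peaks, the median distance was 41.4 kb, and recurrence differed by 14.9 points between dBigH1 peaks with and without H1.

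With scores of 100 or more in all lists, dBigH1 peaks per 100 H1 peaks were 3.01 on 2L, 0.137 on 2R, 2.29 on 3L and 0.464 on 3R, overlap was 38.6% of dBigH1 and 0.505% of H1 peaks, the median distance was 0.837 kb and recurrence differed by 14.4 points. The 3L share difference was 14.7 points on average, with opposite signs in the replicates. With peaks closer than 1000 bp joined, the ratios per 100 were 13.0 on 2L, 2.18 on 2R, 13.0 on 3L and 4.05 on 3R, H1 overlap was 3.75% and recurrence differed by -3.47 points. The log2 ratio of median width was 0.016. By midpoints, dBigH1 overlap was 55.6% and the median distance 1.87 kb. These causes were not tested.

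The score ratio of dBigH1 peaks with H1 over without ran between -0.15 and 0.054 when 1 replicate was left out. The score and width ratios of H1 peaks with dBigH1 over without were positive on average under all alternatives run, at 0.13 to 1.25 and 0.08 to 1.37 on the log2 scale, lowest at equal list length.

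With the replicate number as a replicate block, the values were the same as without it (log2 ratio -4.31 for peak number and 0.27 for median width), and the exact sign-flip p cannot go below 0.5. The deviations of same-numbered lists over 99 windows correlated at -0.15, and with the numbers crossed dBigH1 overlap was 55.2%, the dBigH1 score ratio 0.0097 and the recurrence difference 0.64 points. Chromosome 4, with no peaks, gave no alternative values, and depth is unknown.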

Other observations

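On 2L, 2R, 3L, 3R, X and 4, 99 windows of 1 Mb held a peak in at least 1 of the 4 lists, and windows empty in all lists were left out. Of the 99, 56 held dBigH1 peaks in each replicate, and 96 and 98 held H1 peaks. In replicate 1, 1 window held dBigH1 without any H1 peak, and in replicate 2 none did. H1 without dBigH1 was found in 41 and 42 windows. The Spearman correlation of the counts of dBigH1 and H1 peaks across the 99 windows was 0.60 and 0.43, a description of windows that share a library and the arm they lie on.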
